A study of Mus musculus with 12 samples.

Results

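The CCN family and YAP target genes described here are 5 CCN genes, Ctgf, Cyr61, Nov, Wisp1 and Wisp2, and 2 other genes, Ankrd1 and Amotl2. They were taken by gene symbol from the table of normalized counts, as a set put together with earlier results of these data known, and the transcript entries of each symbol were summed. The 7 genes are 7 of 35976 gene symbols in the table and hold 12 of its 106518 transcript entries. A normalized count is the number of sequencing fragments counted for a transcript, divided by a size factor for its library.

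RNA was sequenced from P3D8 and P3E3, 2 clonal fibroblast lines of the mouse digit tip, each grown from a single cell of the lacZ+ P3 line, so that each line is 1 clone. P3D8/BMP9 and P3E3/BMP9 cultures were aggregated in suspension with 50 ng/ml BMP2 for 4 days and then differentiated into cartilage with 50 ng/ml BMP9 for 14 days. P3D8 and P3E3 monolayer cultures received neither BMP, and grew on fibronectin with EGF and PDGF (10 ng/ml each) and LIF (0.5 ng/ml). All 12 libraries, 3 in each of the 4 groups, came from cells at passage 6 in DMEM with 2% fetal bovine serum. Cartilage and monolayer differed in BMP2, BMP9, aggregation, coating, the 3 growth factors and time in culture, and the effects of these on the genes below cannot be told apart. The study describes the cartilage libraries of each line as coming from 3 separate experiments. For the monolayer libraries neither the labels nor the study say whether replicates were separate cultures, so their spread may be technical.

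CCN proteins are secreted, cysteine-rich proteins of the matrix that bind integrins, syndecans and LRP receptors and are known for their roles in cartilage and connective tissue. YAP and TAZ are transcriptional co-activators that work through TEAD factors. The Hippo kinases LATS1 and LATS2 keep them out of the nucleus, while cell spreading and tension let them in, and Ctgf, Cyr61, Ankrd1 and Amotl2 are widely used readouts of their activity. BMP and TGF-beta signals also reach Ctgf and Cyr61 through Smad factors. In the current nomenclature Cyr61 is Ccn1, Ctgf is Ccn2, Nov is Ccn3, Wisp1 is Ccn4 and Wisp2 is Ccn5.

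By the RefSeq annotation of GRCm38.p6, Ctgf lies at chr10:24595442-24598683 on the plus strand, Cyr61 at chr3:145646971-145649985 on the minus strand and Wisp2 at chr2:163820752-163833146 on the plus strand. Nov and Wisp1 share a chromosome, at chr15:54745910-54753762 and chr15:66891369-66923201, both on the plus strand. Ankrd1 lies at chr19:36111965-36119844 on the minus strand and Amotl2 at chr9:102717091-102733418 on the plus strand. A noncoding gene, Gm15270, is annotated by GENCODE on the minus strand across Ctgf. It has no entry in the counts table, and whether the counting used strand is not given in the sources used here.

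Promoters are shown for the YAP targets because TEAD factors carry YAP to DNA. The RefSeq promoter table for GRCm38.p6 held 3 of the 7 genes, Cyr61, Ankrd1 and Amotl2. Each sequence reads 5′ to 3′ on the gene's strand, up to the last base before the transcription start, with the TEAD core motif, GGAATG or its reverse complement CATTCC, in capitals. The Cyr61 window is chr3:145649986-145650235 on the minus strand and the Ankrd1 window chr19:36119845-36120094 on the minus strand. For Amotl2 only the bases around the motif are shown, from the window chr9:102717554-102717803 on the plus strand. This window lies inside the annotated gene, which begins at 102717091. The start used for the Amotl2 window is thus downstream of the gene's first annotated base.
Cyr61: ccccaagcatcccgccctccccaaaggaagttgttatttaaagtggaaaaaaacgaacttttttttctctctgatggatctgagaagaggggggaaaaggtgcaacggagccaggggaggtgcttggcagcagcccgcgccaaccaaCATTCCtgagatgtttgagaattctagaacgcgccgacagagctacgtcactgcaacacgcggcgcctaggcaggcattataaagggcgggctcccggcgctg
Ankrd1: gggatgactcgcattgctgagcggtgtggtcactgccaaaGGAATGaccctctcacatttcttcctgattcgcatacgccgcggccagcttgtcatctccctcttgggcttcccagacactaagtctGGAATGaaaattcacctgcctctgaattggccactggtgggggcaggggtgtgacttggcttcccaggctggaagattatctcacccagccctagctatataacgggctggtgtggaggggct
Amotl2: gaaactctcaCATTCCtggcatagca

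The Cyr61 window held 1 TEAD core motif, 103 to 98 bases before the start, and the palindrome GGCGCC, a GC-rich Smad motif, 42 to 37 bases before it. Ankrd1 held 2 TEAD core motifs, at 210 to 205 and at 123 to 118 bases. Amotl2 held 1 at 65 to 60 bases before the start used for its window. Of the 32851 promoter windows of this length, 12.6% held at least 1 TEAD core motif on either strand, 1.02% held 2 or more, and 9.59% held GGCGCC. The AP-1 motif TGANTCA, found in 6.75% of windows, and the SRF CArG box, found in 1.47%, had no match in these 3. The motifs searched share no overlapping match here, and a match describes the letters alone. The plot of motif positions shows the TEAD motifs at different distances from the start in each gene.

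**Figure D1:**
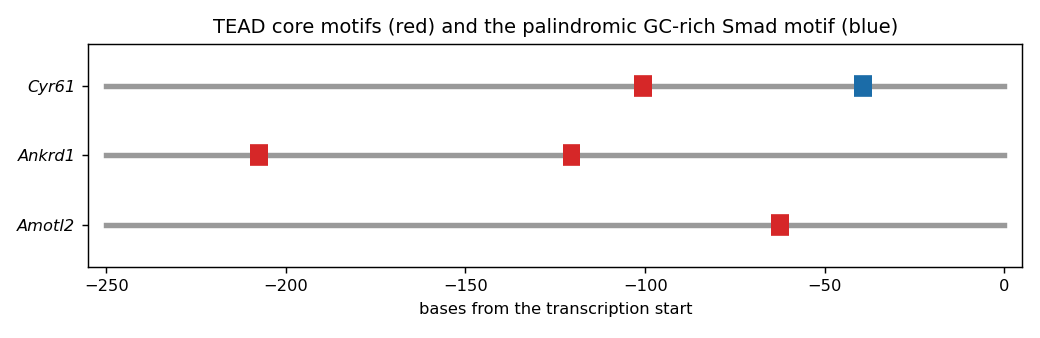
Positions of motifs in the promoter windows of Cyr61, Ankrd1 and Amotl2. The Amotl2 window lies inside its annotated gene, and its start is the one used for that window. The horizontal axis is the distance in bases from the transcription start, grey lines are the 250 bases before it, red marks are TEAD core motifs (1 in Cyr61, 2 in Ankrd1, 1 in Amotl2) and the blue mark is the GGCGCC motif of Cyr61.

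The libraries held 7269748 to 8662298 counted reads. The sample records of 4 libraries, 1 per group, give the other clone as cell line than their titles do, and titles were used for grouping. All 12, these 4 included, correlated more closely with the other libraries of their title's group (r of 0.985 to 0.993 across genes) than with the other clone in the same culture (0.935 to 0.960). Without these 4, the number of members called was the same in each comparison below, other than 0 in place of 2 for the difference between the lines. The summed normalized counts of 13 chondrocyte markers were 4167 to 4327 in P3D8/BMP9, against 724 to 887 in P3D8 monolayer, and 7730 to 12133 in P3E3/BMP9, against 842 to 921 in P3E3 monolayer. The largest part came from Sox9, averaging 3869 in P3D8/BMP9, against 781 in P3D8 monolayer, and 4962 in P3E3/BMP9, against 879 in P3E3 monolayer. In P3E3/BMP9, Col9a2 averaged 3117 and Chad 1296. The summed counts of 3 hypertrophic chondrocyte markers, Col10a1, Ihh and Mmp13, were 4055 to 10149 in P3D8/BMP9, against 25.7 to 93.1 in P3D8 monolayer, and 3131 to 30346 in P3E3/BMP9, against 3.65 to 10.7 in P3E3 monolayer. In cartilage most of these counts came from Col10a1, averaging 6818 in P3D8/BMP9 and 14451 in P3E3/BMP9. The summed counts of 8 fibroblast markers, nearly all from the collagens Col1a1, Col1a2 and Col3a1, were 1003960 to 1083210 in P3D8/BMP9, against 86284 to 87438 in P3D8 monolayer, and 520369 to 602493 in P3E3/BMP9, against 46937 to 50036 in P3E3 monolayer. Smooth muscle markers (5, with Myh11 at 0) summed to 789 to 896 in P3D8/BMP9, against 165 to 239 in P3D8 monolayer, and 519 to 630 in P3E3/BMP9, against 295 to 487 in P3E3 monolayer. Most of these counts came from Acta2, which was not called in P3E3 (log2FC 0.29, limma adjusted p = 0.150). Des was higher there (log2FC 5.73, limma adjusted p = 4.54e-10). Macrophage and leukocyte markers (5, with Ptprc, Adgre1 and Csf1r at 0 and most counts from Cd14) summed to 180 to 247 in P3D8/BMP9, against 423 to 543 in P3D8 monolayer, and 112 to 149 in P3E3/BMP9, against 112 to 170 in P3E3 monolayer. The chondrocyte, hypertrophic, fibroblast and smooth muscle sums were higher in cartilage of both lines, while the fibroblast marker Pdgfra was lower in both (log2FC -1.10 and -1.87, limma adjusted p = 0.00305 and 3.27e-05). The macrophage and leukocyte sum was lower in P3D8 cartilage. Their part in the results below was not tested. The endothelial genes Pecam1, Cdh5, Kdr and Tek and the muscle genes Myod1, Myog, Myh7 and Tnnt2, whose cell types use Ctgf, Cyr61 or Ankrd1, were listed at 0 in all 12 libraries. All 4 of these endothelial genes and 2 of the 4 muscle genes, Myh7 and Tnnt2, have several transcript entries. Low counts were more frequent for such genes: 92.2% of protein-coding genes with 4 or more entries and 81.9% of those with 2 or 3 had a mean normalized count under 10, against 60.9% of those with 1 entry. The share at 0 in all libraries differed less, at 44.3%, 42.9% and 39.8%. In whole cultures, a change in the number of cells that express a gene and a change in the RNA per cell cannot be told apart.

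Culture as BMP9 cartilage went with higher Ctgf, Cyr61 and Wisp2 and with lower Nov and Ankrd1, in both clonal lines. Of the 7 genes, 5 had a mean normalized count of at least 10 over the 12 libraries and were tested, and all 5 were called in both lines at an adjusted p under 0.05 (limma on log2(normalized count + 1), Benjamini-Hochberg adjustment over all 5294 genes tested). In P3D8, 3 were higher and 2 lower, where 37.6% of all genes tested were called higher and 38.7% lower. In P3E3, likewise 3 were higher and 2 lower, where 41.6% and 38.1% of all genes tested were. The libraries of the cultures did not overlap for any of the 5 in either line, as for 39.5% (higher) and 39.9% (lower) of all genes in P3D8 and 42.2% and 38.6% in P3E3. With so many of all genes called between these cultures, the calls of the 5 are read for their direction and size. Under the study's thresholds, an absolute log2FC of at least 1.5 with an adjusted p under 0.05, 4 of the 5 passed in each line: Ctgf, Cyr61 and Wisp2 higher, where 18.9% (P3D8) and 21.4% (P3E3) of genes were, and Ankrd1 lower, where 10.2% and 12.3% were. Nov did not reach the fold threshold in the values as deposited. After scaling to total reads, Nov reached it in P3E3 (log2FC -1.58) and not in P3D8 (-1.46). Under the same scaling Cyr61 did not reach it in either line (log2FC 1.46 in P3D8 and 0.98 in P3E3). The median log2FC of the 5 tested genes was 1.84 in P3D8 and 1.59 in P3E3, against -0.03 and 0.07 over all genes tested. The 5 include genes that passed the filter mainly through the culture in which they are high.

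Ctgf, a matricellular growth factor needed for normal growth plate cartilage, had 4625, 4660 and 6291 normalized counts in P3D8/BMP9, against 322, 280 and 253 in P3D8 monolayer. In P3E3/BMP9 it had 2695, 2433 and 2543, against 96.6, 85.4 and 113 in P3E3 monolayer. Every cartilage library was above every monolayer library, and the P3D8 line was above the P3E3 line in each culture. The change was 18.1-fold in P3D8 (log2FC 4.17, SE 0.13, limma adjusted p = 1.62e-12) and 25.9-fold in P3E3 (log2FC 4.70, SE 0.13, limma adjusted p = 2.44e-13).

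Cyr61, an immediate early gene whose protein binds integrins, had 3384, 3157 and 5107 normalized counts in P3D8/BMP9, against 986, 940 and 1286 in P3D8 monolayer. In P3E3/BMP9 it had 4018, 4122 and 3783, against 1317, 1290 and 1347 in P3E3 monolayer. The cultures did not overlap in either line, but unlike Ctgf the gene was already abundant in monolayer. The change was 3.57-fold in P3D8 (log2FC 1.84, SE 0.15, limma adjusted p = 4.76e-08) and 3.01-fold in P3E3 (log2FC 1.59, SE 0.15, limma adjusted p = 1.93e-07).

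Wisp2, a CCN protein that lacks the C-terminal domain of the other members, had 1581, 1542 and 1614 normalized counts in P3D8/BMP9, against 0.652, 0 and 0.621 in P3D8 monolayer. In P3E3/BMP9 it had 1275, 1387 and 1316, against 0.604, 1.19 and 1.22 in P3E3 monolayer. It was a well counted gene in every cartilage library and close to absent from the counts in every monolayer library. The 3 P3D8/BMP9 libraries together held 6031 reads, against 2 in the 3 P3D8 monolayer libraries, a ratio of 3711 after correction for size factors (95% interval 1027 to 30649). In P3E3 the reads were 4876 in cartilage and 5 in monolayer, a ratio of 1321 (566 to 4070). These intervals are exact and cover counting error only. The fitted log2FC was 10.15 in P3D8 (limma adjusted p = 2.49e-14) and 9.39 in P3E3 (limma adjusted p = 2.48e-14), values that depend on the pseudocount of 1 added before the log.

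**Figure D2:**
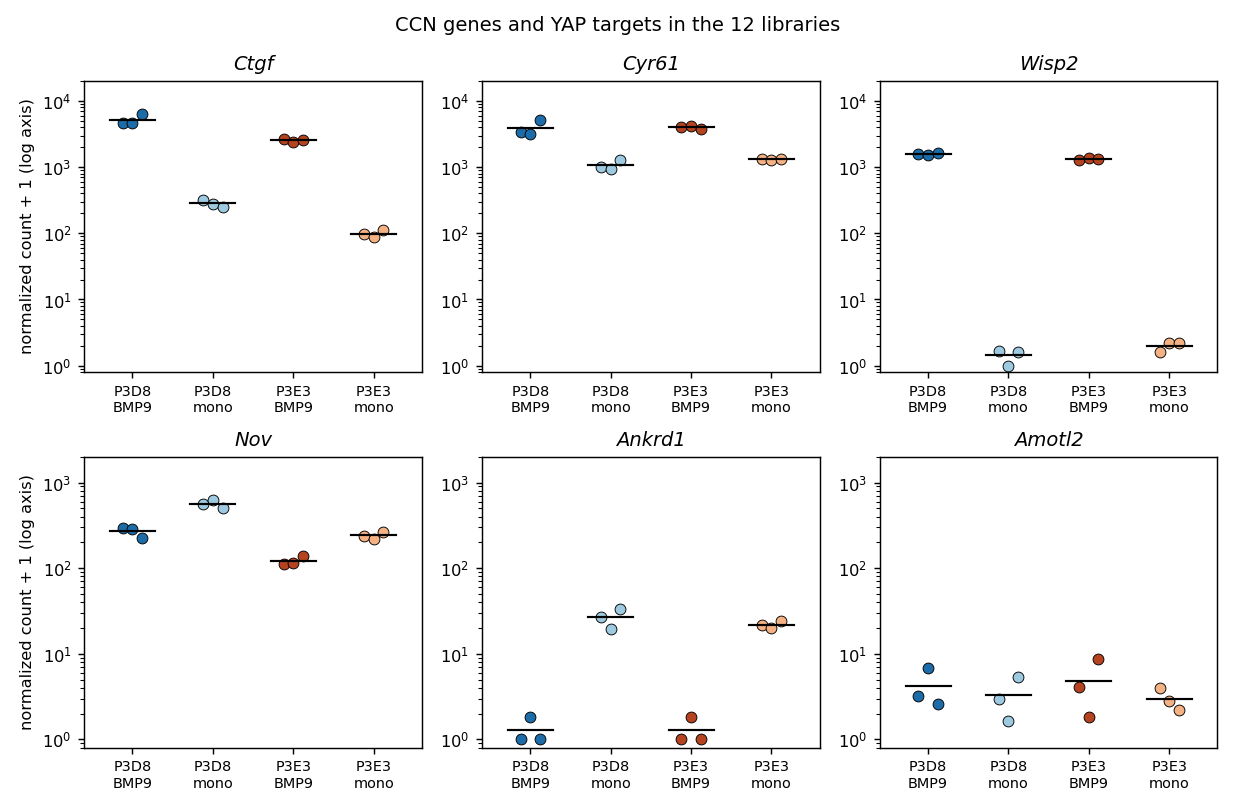
Normalized counts of 6 of the 7 genes in the 12 libraries, with 1 added, on a log axis (Wisp1 was listed at 0 in all). Points are the 3 libraries of each group, bars their means, and mono stands for monolayer. Ctgf, Cyr61 and Wisp2 sit higher in BMP9 cartilage of both lines, Nov and Ankrd1 sit lower, and Amotl2 stays at or under 7.72 normalized counts in every library.

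Nov, a CCN protein often set against Ctgf in cartilage because it opposes several of its actions, had 295, 283 and 224 normalized counts in P3D8/BMP9, against 556, 624 and 509 in P3D8 monolayer. In P3E3/BMP9 it had 112, 115 and 138, against 238, 217 and 266 in P3E3 monolayer. It was the only tested CCN gene that was lower in cartilage, in every library of both lines. The log2FC was -1.08 in P3D8 (SE 0.13, limma adjusted p = 3.43e-06) and -0.98 in P3E3 (SE 0.13, limma adjusted p = 8.45e-06). With libraries grouped by the cell line entry in place of the title, each group held titles of both lines. The change then kept its direction and missed the threshold, with a limma adjusted p of 0.0540 in P3D8 and 0.171 in P3E3.

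Ankrd1, a nuclear and sarcomeric ankyrin repeat protein and a common YAP readout, had 0, 0.824 and 0 normalized counts in P3D8/BMP9, against 26.1, 18.6 and 32.3 in P3D8 monolayer. In P3E3/BMP9 it had 0, 0.827 and 0, against 20.5, 19.0 and 23.1 in P3E3 monolayer. The gene passed the filter through the monolayer libraries alone, and without P3D8 monolayer replicate 3 its mean was under 10 and it was not tested. The 3 P3D8/BMP9 libraries held 1 read, against 121 in P3D8 monolayer, so that monolayer was 98.3 times higher with an exact 95% counting interval of 17.3 to 3915. In P3E3 the cartilage libraries held 1 read and the monolayer libraries 104, a ratio of 76.8 (13.5 to 3061) in favour of monolayer. The fitted log2FC was -4.42 in P3D8 (limma adjusted p = 2.85e-08) and -4.16 in P3E3 (limma adjusted p = 4.51e-08). Ankrd1 thus went the other way from Ctgf and Cyr61, the other YAP readouts that could be tested, in both lines.

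Wisp1, a CCN protein expressed in osteoblast precursors, was listed at 0 in all 12 libraries in both of its transcript entries. Amotl2, an angiomotin-like scaffold that binds YAP, has 4 entries and held 0.643 to 7.72 normalized counts per library. It had 2.24, 5.77 and 1.58 in P3D8/BMP9 and 1.96, 0.643 and 4.35 in P3D8 monolayer, then 3.06, 0.827 and 7.72 in P3E3/BMP9 and 3.02, 1.78 and 1.22 in P3E3 monolayer. The groups overlapped, and with no filter on low values its log2FC was 0.37 in P3D8 (limma adjusted p = 0.681) and 0.46 in P3E3 (limma adjusted p = 0.631). Both genes have several entries, a class in which low counts were more frequent, so neither the 0 of Wisp1 nor the few reads of Amotl2 are read as a level. Wisp3, the sixth CCN gene of the mouse and no member of the set, held 3 reads in P3D8/BMP9, 0 in P3D8 monolayer, 1 in P3E3/BMP9 and 0 in P3E3 monolayer.

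Between the clonal lines, Ctgf and Nov were higher in P3D8 than in P3E3 in both cultures, while Cyr61, Wisp2 and Ankrd1 were not called. In cartilage, 2 of the 5 genes tested were higher in P3D8/BMP9 than in P3E3/BMP9 and none was lower, where 22.1% of all genes tested were called higher and 28.3% lower. Libraries did not overlap for 3 of the 5, Ctgf, Nov and Wisp2, all higher in P3D8/BMP9, as for 24.7% of all genes higher and 33% lower. Ctgf averaged 5192 ± 952 normalized counts in P3D8/BMP9 and 2557 ± 131 in P3E3/BMP9 (SD, n = 3 each; log2FC 1.01, SE 0.13, limma adjusted p = 2.45e-05). Nov averaged 267 ± 38.1 in P3D8/BMP9 and 122 ± 14.4 in P3E3/BMP9 (log2FC 1.13, SE 0.13, limma adjusted p = 9.33e-06). Cyr61 averaged 3883 ± 1067 in P3D8/BMP9 and 3975 ± 174 in P3E3/BMP9, with overlapping libraries, and the 95% interval of its log2FC ran from -0.39 to 0.26 (limma adjusted p = 0.739). Wisp2 averaged 1579 ± 36.2 in P3D8/BMP9 and 1326 ± 56.7 in P3E3/BMP9. Its libraries did not overlap, yet the log2FC of 0.25 (95% interval -0.19 to 0.70) was not called in the fit over 12 libraries (limma adjusted p = 0.336). It was called by edgeR (adjusted p = 0.00354) and DESeq2 (adjusted p = 0.00175) on the recovered reads and by limma on the 6 cartilage libraries alone (adjusted p = 0.0145). Ankrd1, at 1 read in each line, had a 95% interval of the log2FC from -0.74 to 0.74 (limma adjusted p = 0.9999). None of the 5 passed the study's thresholds between the cartilages, where 4.89% of genes passed higher and 3.51% lower.

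In monolayer, with no BMP2 or BMP9 added, the same 2 genes were higher in P3D8. Here 26.6% of all genes tested were called higher and 23.2% lower. Libraries did not overlap for Ctgf and Nov, higher in P3D8, and for Cyr61, lower in P3D8, as for 30% of all genes higher and 27.3% lower. Ctgf averaged 285 ± 35.1 normalized counts in P3D8 monolayer and 98.2 ± 13.7 in P3E3 monolayer (log2FC 1.53, SE 0.13, limma adjusted p = 3.85e-07), and was the 1 member past the study's thresholds, which 6.65% of genes passed higher and 1.76% lower. Its log2FC was under 1.5 with a pseudocount of 5 (1.49), after scaling to total reads (1.41), without P3D8 monolayer replicate 1 (1.44), without P3E3 monolayer replicate 2 (1.43) and under grouping by the cell line entry (0.76). Nov averaged 563 ± 57.9 in P3D8 monolayer and 240 ± 24.3 in P3E3 monolayer (log2FC 1.22, SE 0.13, limma adjusted p = 3.84e-06). Cyr61 averaged 1071 ± 188 in P3D8 monolayer and 1318 ± 28.6 in P3E3 monolayer, with a log2FC of -0.31 (95% interval -0.64 to 0.01, limma adjusted p = 0.101). The difference was called without P3D8 monolayer replicate 3, the highest of its group (limma adjusted p = 0.0268), and without P3D8/BMP9 replicate 3 (limma adjusted p = 0.0187), as well as on the 6 monolayer libraries alone (0.0395) and after scaling to total reads (0.0252). Ankrd1 averaged 25.7 ± 6.83 in P3D8 monolayer and 20.9 ± 2.11 in P3E3 monolayer, with overlapping libraries and a 95% interval of the log2FC from -0.49 to 1.00 (limma adjusted p = 0.573). Wisp2, at 2 reads in P3D8 monolayer and 5 in P3E3 monolayer, had a log2FC of -0.51 (95% interval -0.96 to -0.07, limma adjusted p = 0.0545) and overlapping libraries. It was called with a pseudocount of 0.5 (adjusted p = 0.0393), at a mean of at least 50 (0.0450), after scaling to total reads (0.0309), and without P3D8 monolayer replicate 1 (0.0310) or 3 (0.0328) or P3E3 monolayer replicate 1 (0.0207). By edgeR and DESeq2 on the reads it was not called (adjusted p = 0.380 and 0.421). When libraries were grouped by the cell line entry, no member was called between the lines in either culture.

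**Figure D3:**
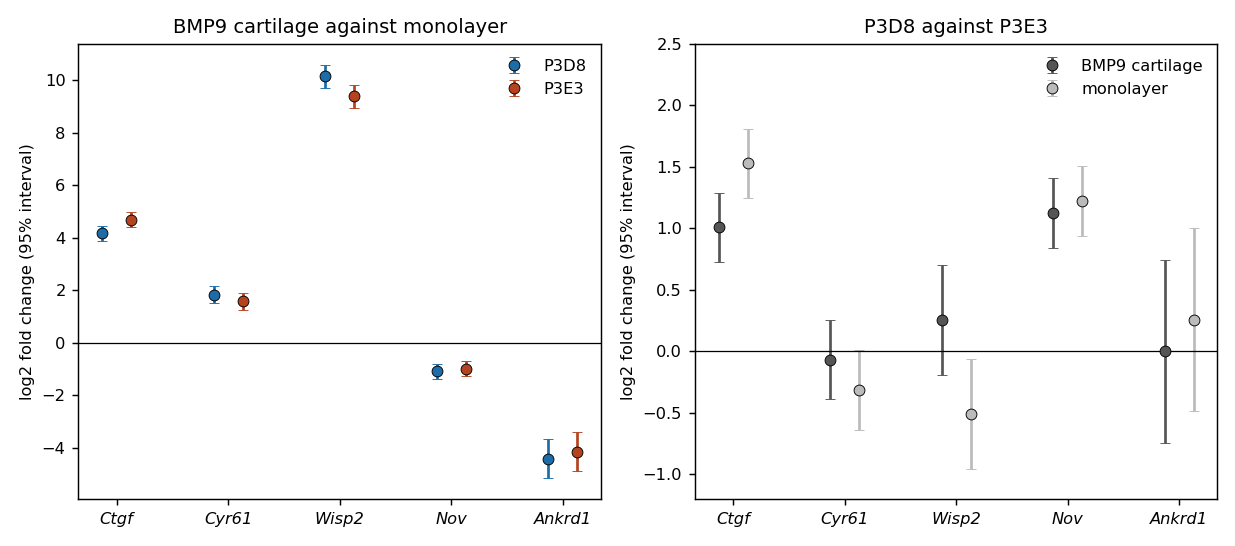
Log2 fold changes of the 5 genes tested, with 95% intervals from limma. The left panel sets BMP9 cartilage over monolayer in each line, with values from -4.42 (Ankrd1) to 10.15 (Wisp2), and the right panel sets P3D8 over P3E3 in each culture, where Ctgf and Nov stand above 0 in both.

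The change with culture differed between the lines for Ctgf and Wisp2 by the interaction term, P3D8 minus P3E3. For Ctgf the difference was -0.52 on the log2 scale (SE 0.19, limma adjusted p = 0.0333), so that its rise was smaller in P3D8. For Wisp2 it was 0.76 (SE 0.29, limma adjusted p = 0.0469), a value that rests on 2 and 5 monolayer reads. Of all genes tested, 18.6% had a higher and 27.6% a lower change in P3D8. Both calls were near the threshold: in 21 of 24 alternatives fewer than 2 of the 5 were called, with the Ctgf call lost in 13 and the Wisp2 call in 17. Neither was called without P3D8/BMP9 replicate 1 or 2, P3D8 monolayer replicate 2, P3E3/BMP9 replicate 1 or P3E3 monolayer replicate 2. Without P3D8 monolayer replicate 2, in which Wisp2 was at 0, the limma adjusted p was 0.0521 for Ctgf and 0.0886 for Wisp2. For Nov the difference was -0.10 (95% interval -0.50 to 0.30), for Cyr61 0.25 (-0.21 to 0.71) and for Ankrd1 -0.26 (-1.31 to 0.79).

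Per kilobase of transcript, which allows the levels of different genes to be compared, the 4 counted CCN genes together averaged 5100 ± 929 normalized counts per kb in P3D8/BMP9, against 846 ± 65.1 in P3D8 monolayer. In P3E3/BMP9 they averaged 3849 ± 87.4, against 778 ± 28.4 in P3E3 monolayer. Their mix shifted along with the sum. Ctgf made up 42.5% ± 0.744 of the sum in P3D8/BMP9, against 14.2% ± 2.52 in P3D8 monolayer, and 27.7% ± 1.52 in P3E3/BMP9, against 5.25% ± 0.541 in P3E3 monolayer. Cyr61 made up 37.3% ± 3.28 in P3D8/BMP9, against 62.4% ± 5.95 in P3D8 monolayer, and 51.1% ± 1.15 in P3E3/BMP9, against 83.9% ± 1.24 in P3E3 monolayer. Wisp2 took 18.3% ± 2.70 in P3D8/BMP9 and 20.05% ± 0.875 in P3E3/BMP9, while in monolayer it was under 0.1% of the sum. Nov made up 1.89% ± 0.544 in P3D8/BMP9, against 23.4% ± 3.97 in P3D8 monolayer, and 1.10% ± 0.157 in P3E3/BMP9, against 10.7% ± 0.696 in P3E3 monolayer. Ctgf was thus the leading CCN transcript only in P3D8/BMP9, and Cyr61 led in the other 3 groups. Genes with several entries, Wisp2 and Wisp1 among them, may be counted low in these shares.

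**Figure D4:**
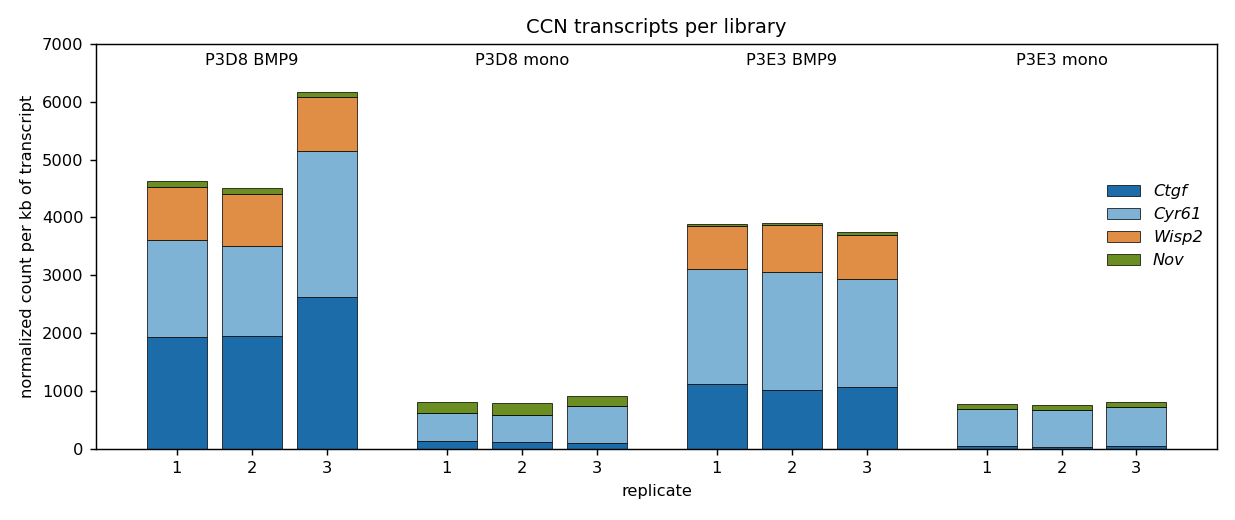
Normalized counts per kb of transcript of Ctgf, Cyr61, Wisp2 and Nov, stacked for each of the 12 libraries, with replicate numbers on the horizontal axis and mono for monolayer. Cartilage libraries reach 3748 to 6170 per kb in all and monolayer libraries 751 to 920, and the Wisp2 segment is visible in cartilage alone.

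Within groups, the CCN genes did not always move together. P3D8/BMP9 replicate 3 was 0.29 above the mean of its group for Ctgf and 0.43 above it for Cyr61 on the log2 scale, while it was 0.24 below it for Nov. Wisp2 was 0.03 above the mean in the same library. P3D8 monolayer replicate 3 was the highest of its group for Cyr61 (0.28 above the mean) and the lowest for Ctgf (0.17 below). The ratio of Ctgf to Cyr61 normalized counts was 1.37, 1.48 and 1.23 in P3D8/BMP9, against 0.327, 0.298 and 0.197 in P3D8 monolayer. In P3E3/BMP9 it was 0.671, 0.590 and 0.672, against 0.0733, 0.0662 and 0.0836 in P3E3 monolayer. This ratio, which no scaling of a library can change, ordered the 4 groups with no overlap.

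By level, Ctgf ran from P3D8/BMP9 through P3E3/BMP9 and P3D8 monolayer to P3E3 monolayer, with no overlap between neighbours. For Cyr61 the cartilages overlapped at the top, and the monolayers lay below with P3E3 above P3D8 in every library. For Nov, P3D8 monolayer was highest, P3D8/BMP9 and P3E3 monolayer overlapped in the middle, and P3E3/BMP9 was lowest. For Ankrd1 the monolayers overlapped above the cartilages, which also overlapped.

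Of the other YAP and TAZ targets that could be tested, 6 of 8 were higher in P3D8 cartilage and 5 of 8 in P3E3 cartilage, and of the Hippo pathway genes that could be tested, 6 of 11 and 8 of 11 were lower. The Hippo list pools genes that act with the LATS kinases and genes that restrain them, such as Ajuba. Its count thus gives no direction of YAP activity. Over all genes tested, 37.6% were higher and 38.7% lower in P3D8, and 41.6% higher and 38.1% lower in P3E3, the shares against which the counts of the 4 lists below stand. These lists, and the genes named from them, were chosen with earlier results of these data known, and they are described by counts. Of 18 other YAP and TAZ targets, 8 could be tested and 10 had a mean under 10. In P3D8, 6 were higher and 2 lower, and in P3E3 5 were higher, 1 was lower and 2 were not called, with a median log2FC of 1.00 and 1.19 against -0.03 and 0.07 over all genes. Ccdc80, a secreted matrix protein with 5 transcript entries, had a log2FC of 3.97 in P3D8 and 4.08 in P3E3 (limma adjusted p = 1.03e-07 and 6.32e-08). It averaged 155 normalized counts in P3D8/BMP9, against 8.91 in P3D8 monolayer, and 158 in P3E3/BMP9, against 9.27 in P3E3 monolayer. Fjx1, a secreted protein related to the fly gene four-jointed, had 1.52 and 4.10, and Gadd45b, a stress response gene, had 2.74 and 1.32. Foxf2, a forkhead transcription factor, had 2.52 and 1.46. The gene lower in both lines was F3, the clotting initiator tissue factor (-0.40 and -0.44), and Nt5e, the ectonucleotidase CD73, was lower in P3D8 (-0.56) and higher in P3E3 (1.06). Lats2 (0.15) and Arhgef17 (0.22) were the 2 not called in P3E3. After scaling to total reads, Lats2 (adjusted p = 0.298) and Arhgef17 (0.846) lost their calls in P3D8, which left 4 higher, and in P3E3 the number lower was 3. The F3 call in P3D8 was lost without P3D8/BMP9 replicate 1 (adjusted p = 0.0554) or 2 (0.0509) or P3D8 monolayer replicate 3 (0.0748), and in P3E3 without P3E3/BMP9 replicate 1 (0.0587) or P3E3 monolayer replicate 2 (0.0721).

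Of 26 Hippo pathway core genes, 11 could be tested and 15 had a mean under 10. In P3D8, 2 were higher, 6 lower and 3 not called, and in P3E3 none was higher, 8 were lower and 3 were not called, with median log2FC of -0.55 and -0.67. Yap1, Wwtr1 (which encodes TAZ), Tead1 and Tead2 were listed at 0 in all 12 libraries, and each has several transcript entries, so their levels were not read. Ajuba, a LIM protein that restrains LATS kinases, averaged 574 ± 25.0 normalized counts in P3D8/BMP9, against 2151 ± 267 in P3D8 monolayer, and 334 ± 67.3 in P3E3/BMP9, against 3633 ± 210 in P3E3 monolayer. Its log2FC was -1.90 in P3D8 and -3.46 in P3E3 (limma adjusted p = 4.88e-09 and 4.63e-12). Wwc1, the upstream scaffold KIBRA, had -2.03 and -1.97. The LATS cofactor Mob1b had -1.56 and -3.23, and Mob1a had -1.04 and -0.64. Vgll4, which competes with YAP for TEAD, averaged 116 ± 22.5 in P3D8/BMP9, against 68.8 ± 18.8 in P3D8 monolayer (log2FC 0.76, adjusted p = 0.0125), and 45.8 ± 15.3 in P3E3/BMP9, against 117 ± 19.1 in P3E3 monolayer (log2FC -1.37, limma adjusted p = 0.000154). Vgll4 has 6 transcript entries. Leaving out P3D8/BMP9 replicate 2 or P3D8 monolayer replicate 2 ended the Vgll4 call in P3D8 (adjusted p = 0.0582 and 0.0682). Lats2, which is also counted among the other YAP and TAZ targets, was the other gene higher in P3D8 (0.48). After scaling to total reads neither was called higher in P3D8 (adjusted p = 0.174 for Vgll4 and 0.298 for Lats2), and 9 genes were lower in P3D8 and 11 in P3E3. Of the 8 lower in P3E3, Lats1 lost its call without P3E3/BMP9 replicate 2 (adjusted p = 0.114) or P3E3 monolayer replicate 3 (0.0821).

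Of 10 receptors that bind CCN proteins, 5 could be tested, and 4 were higher in cartilage of both lines. The other 5, the integrin chains Itgav, Itgb3, Itgb5, Itga5 and Itga6, had a mean under 10. Each has several transcript entries, so their levels were not read. Notch1 averaged 267 ± 78.2 normalized counts in P3D8/BMP9, against 8.51 ± 0.170 in P3D8 monolayer, and 413 ± 134 in P3E3/BMP9, against 19.1 ± 5.97 in P3E3 monolayer (log2FC 4.77 and 4.36). The heparan sulfate proteoglycan Sdc4 had a log2FC of 1.95 in P3D8 and 1.80 in P3E3, the endocytic receptor Lrp1 0.75 and 1.68, and the Wnt co-receptor Lrp6 1.30 and 1.21. Itgb1, the shared integrin beta chain, was the gene not called (-0.15 and 0.15). After scaling to total reads, 4 were higher and 1 lower in each line. Of 15 SRF and MRTF genes, regulators and targets together, 7 could be tested and 8 had a mean under 10. In P3D8, 3 were higher and 4 lower, and in P3E3 2 were higher, 3 lower and 2 not called. Mkl1, which encodes the SRF co-activator MRTF-A, had a log2FC of -1.41 in P3D8 and -2.002 in P3E3, Cnn2, a calponin, -0.81 and -1.16, and Fhl2, a LIM protein, -0.74 and -1.05. Flna, filamin A, had 1.52 and 2.20 at low counts. It averaged 34.5 normalized counts in P3D8/BMP9, against 11.3 in P3D8 monolayer, and 26.9 in P3E3/BMP9, against 5.65 in P3E3 monolayer. Flna has 6 transcript entries, Tpm2 4, and Mkl1 and Fhl2 3 each, a class in which low counts were more frequent. Acta2, smooth muscle actin, had 1.86 in P3D8 and 0.29 in P3E3, where it was not called, as Tpm2 was not (1.65 in P3D8 and -0.21 in P3E3). Tpm2 averaged 35.0 normalized counts in P3D8/BMP9, against 10.7 in P3D8 monolayer, and 5.58 in P3E3/BMP9, against 4.22 in P3E3 monolayer. Egr1, an immediate early gene, was lower in P3D8 (-0.89) and higher in P3E3 (0.84). After scaling to total reads, Tpm2 in P3D8 (adjusted p = 0.0655) and Egr1 in P3E3 (log2FC 0.23, adjusted p = 0.383) lost their calls. In P3D8 the Tpm2 call was lost without P3D8/BMP9 replicate 1 or 3 or P3D8 monolayer replicate 1 or 3 (adjusted p of 0.0619 to 0.0954), and the Fhl2 call without P3D8/BMP9 replicate 1 or 3 or P3D8 monolayer replicate 3 (0.0528 to 0.0964). F3, Nt5e, Lats1, Lats2, Arhgef17, Itgb1 and Egr1 were named after their values were seen, as parts of small counts.

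**Figure D5:**
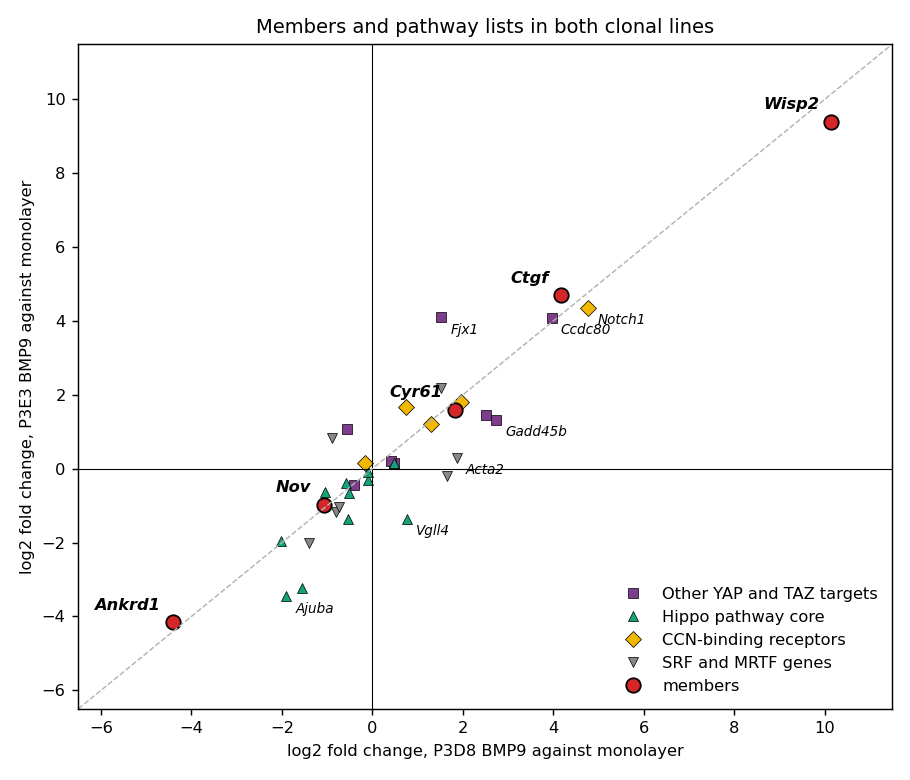
Log2 fold change of BMP9 cartilage over monolayer in P3D8 (horizontal) and P3E3 (vertical) for the 5 tested members (red circles) and the tested genes of 4 lists. The dashed line marks equal change, and Wisp2 (10.15 and 9.39) and Ankrd1 (-4.42 and -4.16) are the outermost points.

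Genes whose pattern over the 12 libraries was most like each member's were picked by Pearson's r on the log2 scale, as a description. The libraries share 4 groups, so that r mostly follows the group means. Ctgf was closest to Prr16, Olfml3 and Bicc1 (r of 0.997 for each). Olfml3, a secreted olfactomedin-like protein, averaged 19198 normalized counts in P3D8/BMP9, against 722 in P3D8 monolayer, and 9782 in P3E3/BMP9, against 190 in P3E3 monolayer, the same order of groups as Ctgf. Wisp2 was closest to Tmtc1 (0.999), Lbp and Bambi (0.998 each). Bambi, a BMP and TGF-beta pseudoreceptor, averaged 3771 in P3D8/BMP9, against 4.04 in P3D8 monolayer, and 4246 in P3E3/BMP9, against 5.82 in P3E3 monolayer. Cyr61 was closest to Ly6d (0.987), Ift20 (0.985) and Arrdc4 (0.981), and Nov to Stom (0.989), Arpc5 (0.975) and Cldn1 (0.974). Cldn1, a tight junction claudin, averaged 292 in P3D8/BMP9, against 1335 in P3D8 monolayer, and 54.6 in P3E3/BMP9, against 316 in P3E3 monolayer. Ankrd1, whose cartilage values are single reads, was closest to Mrpl19 (0.990), Tmem199 and Mybbp1a (0.987 each).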

How the data were processed

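Paired-end RNA-seq of 12 libraries was deposited as normalized counts per RefSeq transcript, the signal values used here. The authors used HISAT2 for alignment to mm10 and HTSeq (htseq-count) for counting, and divided each library's counts by a DESeq2 size factor. The study states that it normalized all its datasets together, which include libraries of articular and growth plate cartilage from other studies. Versions, annotation and strand setting are not given in the sources used here. A second deposited table, with the authors' fold changes, adjusted p-values and group means, was not used, and 0 columns belonged to no sample. All values were whole multiples of 1 step per library within a tolerance of 0.01 reads (100%), so reads were recovered for count tests as alternatives.

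Groups follow sample titles. Transcript entries were summed per symbol. Genes with a mean of at least 10 over 12 libraries (5294 of 35976) were tested by moderated tests in limma 3.58.1 (R 4.3.3; trended prior) on log2(normalized count + 1) in 1 model of 4 groups and 5 contrasts, two-sided, with Benjamini-Hochberg adjustment per contrast and calls at 0.05. Alternatives were pseudocounts of 0.5 and 5, other filters, the most counted transcript per gene, TMM scaling, scaling to total reads, edgeR 4.0.16, DESeq2 1.42.0, a 6-library fit, a replicate block, grouping by cell line entry, and leaving out libraries. Lengths came from GENCODE vM21 transcripts, and read ratios have exact 95% intervals. The code was tested on simulated data. Python 3.11.15 with pandas 2.3.3, numpy 2.4.6 and scipy 1.17.1 prepared the values.

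The members and lists were chosen with earlier results of these data known. The genes named are the members, Wisp3, the 4 genes with the largest change in each line from each pathway list, and the 3 genes most like each tested member, with predicted (Gm, Rik) genes left out. Others named beside small counts were chosen after their values were seen.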

Additional observations from a re-analysis of the deposited data

Results flagged for a closer look

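The change from monolayer to BMP9 cartilage differed between the lines, P3D8 minus P3E3 on the log2 scale, by the limma interaction term with Benjamini-Hochberg adjustment, for 2 members. For Ctgf the difference was -0.521 (adjusted p = 0.0333) and for Wisp2 it was 0.765 (adjusted p = 0.0469). The same term was called higher in P3D8 for 18.6% of all 5294 genes tested and lower for 27.6%.

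Of the genes of the 4 pathway lists, the same term passed for Fjx1 (-2.57), Egr1 (-1.72), Nt5e (-1.63), Lrp1 (-0.928), Mob1a (-0.403) and Itgb1 (-0.302), whose change was more negative or less positive in P3D8. It passed for Vgll4 (2.13), Mob1b (1.66), Acta2 (1.57), Ajuba (1.56), Gadd45b (1.42), Foxf2 (1.05), Wwc2 (0.819), Cnn2 (0.346) and Lats2 (0.324), whose change was more positive or less negative in P3D8. By list, 3 of the 8 other YAP and TAZ targets tested were higher and 2 lower. Of the 11 Hippo pathway genes, 5 were higher and 1 lower, with Lats2 in both lists. Among the 5 receptors 0 were higher and 2 lower, and among the 7 SRF and MRTF genes 2 and 1. With 18.6% of all genes tested higher and 27.6% lower, a call alone does not set these genes apart. Vgll4, Nt5e and Egr1 had log2FC of opposite sign in the lines. After scaling to total reads, the Vgll4 rise in P3D8 and the Egr1 rise in P3E3 were not called (limma adjusted p = 0.174 and 0.383). The Vgll4 rise was also lost without P3D8/BMP9 replicate 2 or P3D8 monolayer replicate 2. For Egr1 the P3D8 cultures overlapped, with cartilage reaching 1101 normalized counts and monolayer going down to 1041. The calls for Cnn2, Lats2 and Itgb1 were near the threshold and were lost when single libraries were left out. Without the 4 libraries with conflicting cell line entries these 3 calls and those for Mob1b (adjusted p = 0.0680) and Wwc2 (0.140) were lost, and after scaling to total reads those for Mob1a (0.212) and Itgb1 (0.572) were. Grouped by the cell line entry, none of these differences was called (adjusted p = 0.9996 for each).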

How the results depend on the processing

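All 5 members tested kept their direction between cartilage and monolayer in every alternative that gave a value, and 4 or 5 were called. Nov lost its call under grouping by the cell line entry, and Ankrd1 was not tested at a mean of at least 50 or without P3D8 monolayer replicate 3. The size for Wisp2 and Ankrd1 depends on the pseudocount: over all alternatives the log2FC in P3D8 ran from 8.19 to 11.93 for Wisp2 and from -6.44 to -2.52 for Ankrd1. Under scaling to total reads, Cyr61 had 0.98 and Nov -1.58 in P3E3. The median of all genes then shifted to -0.41 in P3D8 and -0.53 in P3E3. The share of called genes that were higher was 36.1% and 35.2%, against 49.3% and 52.2% as deposited. That share was 54.5% against 43.8% between the cartilages, 42.3% against 53.4% between the monolayers and 57.4% against 40.2% for the difference between the lines.

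Between the cartilages, 0 members were called under the cell line entry, and 2 when any library was left out. Between the monolayers, 0 were called under the cell line entry, 4 under scaling to total reads, and 2 to 4 when a library was left out. Of the 2 called for the difference between the lines, 1 was called with pseudocount 0.5, pseudocount 5, TMM, scaling to total reads and DESeq2. The count was 0 with no filter, with edgeR, under the cell line entry and without the 4 libraries with conflicting entries, and 0 to 2 when a library was left out. With the replicate block it was 1 (Wisp2 adjusted p = 0.0644), and beside it the block ended only the calls of that difference for Lats2 (0.0571) and Cnn2 (0.0564). Same-numbered libraries had correlations of deviations from -0.299 to 0.111, so the numbers were not taken as pairs.

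The sign of differences near 0 changed. Cyr61 between the cartilages had 0.0109 under TMM, 0.0373 under scaling to total reads, 0.0403 with edgeR, 0.0140 with DESeq2, 0.0986 under the cell line entry, 0.0239 without the 4 conflicting libraries, and 0.0156 and 0.0657 without P3D8/BMP9 replicates 1 and 2 (leaving out 1 library gave -0.28 to 0.0657). Ankrd1 there had 0.0128 under TMM, 0.0183 under scaling to total reads, 0.0185 with edgeR, 0.144 without P3D8/BMP9 replicate 1 or 3 and 0.289 without P3E3/BMP9 replicate 2 (leaving out 1 library gave -0.29 to 0.289). Ankrd1 between the monolayers had -0.0516 under the cell line entry. For the difference between the lines, Nov had 0.125 under scaling to total reads and 0.0227 without P3D8/BMP9 replicate 3 (leaving out 1 library gave -0.18 to 0.0227), and Ankrd1 had 0.0509 under the cell line entry and 0.0318 without P3E3/BMP9 replicate 2 (leaving out 1 library gave -0.55 to 0.0318). In P3D8 cartilage against monolayer under the cell line entry, Nt5e had 0.176 and Vgll4 -0.0030. The causes were not tested. Of 1580 alternative values of list genes, 1490 kept direction and side of the threshold, and 88 lost the call. Depth limits Wisp2 in monolayer and Ankrd1 in cartilage, which rest on 1 to 5 reads a group.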
